A study of Mus musculus with 12 samples.

Results

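The comparison described here is laparotomy against control in the soleus of low functioning aged mice, with 6 of the 12 libraries of the series: 3 after laparotomy and 3 controls. Genes were kept where their mean over the 12 libraries was at least 1 TPM (an abundance per transcript length, scaled to a fixed total per library), which left 10757 of 30323 genes. All the mice were male C57BL/6N from an aging colony, aged 24 months, housed singly and given a running wheel in the cage for 8 weeks. Low functioning (LF) mice were those with the poorer performance on an accelerating rotarod, and high functioning (HF) mice, used beside them, those with the better. Laparotomy is a surgical opening of the abdomen, away from the limb muscles. Muscle was taken 5 days after it, and controls were age matched without laparotomy. The labels do not say whether controls had anaesthesia, nor that each library is a separate mouse, so the p-values measure no more than the spread between libraries, some or all of it possibly technical. Replicate numbers (LF control 1 to 3, LF laparotomy 1 to 3) only name libraries.

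The soleus is a postural muscle of the calf made mostly of slow, oxidative fibres. Surgery at a distant site is known to raise glucocorticoids and cytokines, and muscle can respond with more protein breakdown through the ubiquitin ligases atrogin-1 (Fbxo32) and MuRF1 (Trim63), with less protein synthesis, and with stress signals from the sarcomere. Protein synthesis capacity follows the number of ribosomes, whose protein genes are usually expressed as a block and translated under the control of mTOR signalling.

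In the 12 libraries 16993 to 18148 genes were listed above 0, and their depth is unknown. Muscle fibre markers were abundant in all 6 LF libraries, where the 10 soleus fibre markers summed to between 58228 and 75581 TPM. Myh4, the fast myosin of muscles next to the soleus, exceeded 30 TPM in 3 libraries: LF control 3 (33.5), LF laparotomy 1 (62.4) and HF laparotomy 2 (90.8). LF laparotomy 1 also stood nearest to HF. Its mean correlation of log2 values with the 6 HF libraries was 0.986, against 0.973 to 0.981 for the other LF libraries, and its mean with the LF libraries was 0.987. Results below were also computed without these libraries.

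No gene passed the test of laparotomy against control in LF. limma called 0 of 10757 genes at an adjusted p under 0.05 (0%), and the smallest adjusted p was 0.914. At an unadjusted p under 0.05 there were 291 genes, or 2.71% of those tested. Of these, 156 were higher after laparotomy (1.45%) and 135 lower (1.25%). Genes whose 3 laparotomy libraries all lay above the 3 controls numbered 273 (2.54%), and 422 lay wholly below (3.92%). Both shares are the background for the counts of wholly higher and wholly lower genes in each LF list below. The median difference over all genes was -0.03, on the log2(TPM + 1) scale used throughout. The standard error of a difference had a median of 0.132, which gives a 95% interval of about 0.285 on either side. For 10492 genes (97.5%) that interval lay within 1 log2 of 0, so a doubling or halving of TPM + 1 lay outside it. Smaller differences were often beyond what 3 libraries against 3 could resolve.

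The gene with the smallest p was Tnfrsf12a, the receptor Fn14 for the cytokine TWEAK, which injured and denervated muscle is known to induce. It measured 21.1, 25.6 and 28.7 TPM in the LF controls and 57.3, 52 and 52 TPM after laparotomy. The groups were far apart, and the laparotomy libraries were close to one another. The log2 difference was 1.08 ± 0.20 (SE, 95% interval 0.64 to 1.52), a 2.11-fold higher value of TPM + 1, and limma's adjusted p was 0.914. In HF the same gene measured 40 ± 9.14 TPM in controls and 42.9 ± 14.5 TPM after laparotomy (SD, n = 3 each), a log2 difference of 0.07 ± 0.20. Tnfrsf12a (ENSMUSG00000023905) lies on chromosome 17 from 23675445 to 23677468 in GRCm38.

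Next came Nmrk2, a nicotinamide riboside kinase of muscle that makes NAD precursors. Its values were 13.5, 14.6 and 16.1 TPM in controls and 28.4, 30.5 and 22.3 TPM after laparotomy, with no overlap. The log2 difference was 0.83 ± 0.16 (adjusted p = 0.914), and in HF it was 0.05 ± 0.16. Lmcd1, a LIM domain protein that acts on calcineurin signalling and muscle growth, had very even libraries. It measured 268, 265 and 274 TPM in controls and 367, 352 and 381 TPM after laparotomy. The log2 difference was 0.44 ± 0.09 (adjusted p = 0.914), against -0.02 ± 0.09 in HF. The 3 differences kept their sign in each of the 21 alternative settings, within 0.96 to 1.17 for Tnfrsf12a, 0.74 to 0.99 for Nmrk2 and 0.36 to 0.48 for Lmcd1. They were as large without LF laparotomy 1, at 1.03, 0.79 and 0.44. Nmrk2 (ENSMUSG00000004939) spans 81198170 to 81202051 on chromosome 10, and Lmcd1 (ENSMUSG00000057604) spans 112273758 to 112330425 on chromosome 6.

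**Figure D1:**
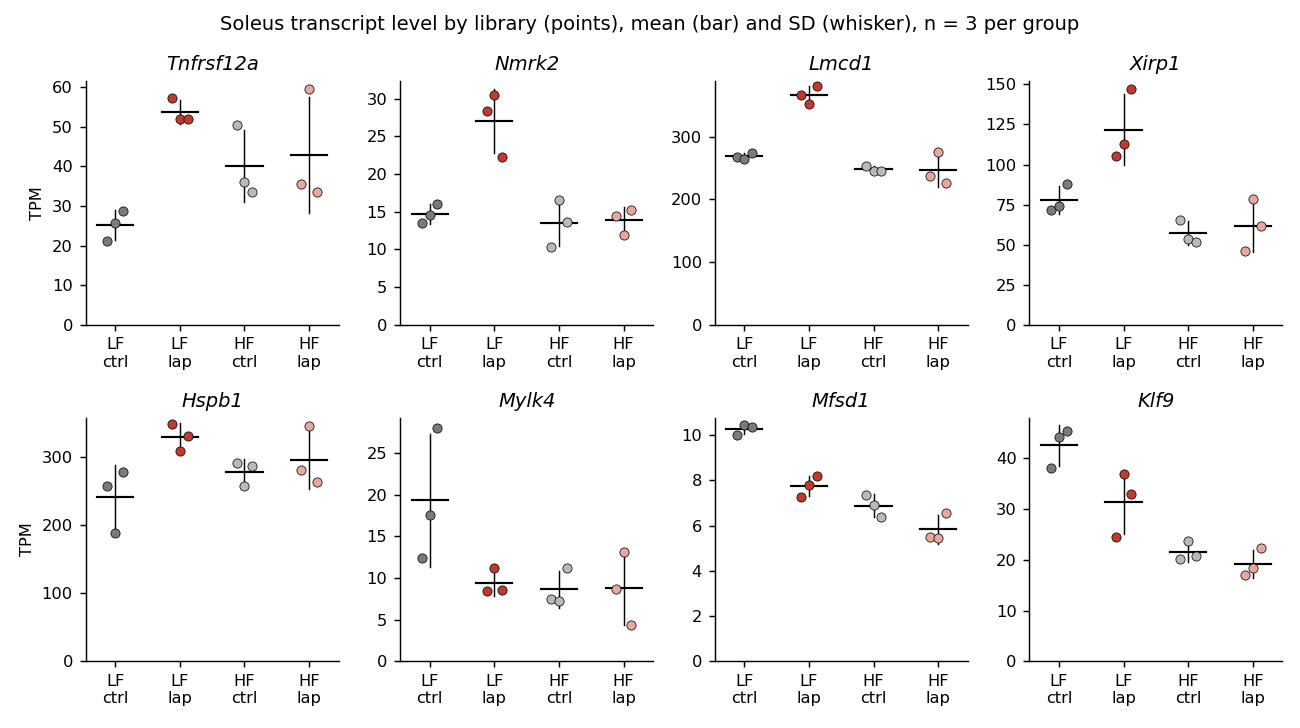
TPM of 8 genes (vertical axes, from 0) in each library of the 4 groups (ctrl, control; lap, laparotomy), with the mean as a bar and the SD as a whisker, n = 3. For Tnfrsf12a, Nmrk2, Lmcd1, Xirp1 and Hspb1 the 3 LF laparotomy points lie above the 3 LF control points, and for Mylk4, Mfsd1 and Klf9 below them.

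The other genes that led by p among those without overlap belonged to different processes, and each had an adjusted p of 0.9995. Arhgap29, a GTPase activating protein, measured 1.39, 1.12 and 0.989 TPM in controls and 2.13, 2.14 and 2.06 TPM after laparotomy. Hnrnpa2b1, an RNA-binding protein of splicing and mRNA transport, measured 47.8, 40.1 and 55.7 TPM in controls against 60, 77.2 and 83.8 TPM. The splicing factor gene U2af2 stood at 12.8, 12.9 and 11.4 TPM in controls against 14.8, 15.7 and 18.3 TPM. Their log2 differences were 0.53 ± 0.12, 0.61 ± 0.18 and 0.37 ± 0.11. The remaining entries were 2 ribosomal protein genes (Rps21 and Rps15, below) and Rps4l, a transcribed locus annotated as a processed pseudogene (0.63 ± 0.17, from at most 1.88 TPM in controls to at least 2.12 TPM). Rps12-ps3, a ribosomal protein locus annotated as coding but left out of these 10 for its pseudogene symbol, differed by 0.64 ± 0.15, also without overlap.

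Among the structural genes of the sarcomere list that were free of overlap, Xirp1 had the largest difference. It encodes Xin, an actin-binding repeat protein of the intercalated disc and myotendinous junction that marks damaged muscle. Values were 71.7, 74.4 and 87.9 TPM in controls and 105, 113 and 147 TPM after laparotomy, a log2 difference of 0.63 ± 0.18 (adjusted p = 0.9995), against 0.09 ± 0.18 in HF. Ankrd2 and Csrp3, stretch-responsive proteins of the sarcomere, had one control library as high as the laparotomy group. Csrp3 read 1022, 509 and 489 TPM in controls against 1186, 1129 and 812 TPM (0.70 ± 0.23). Ankrd2 read 1023, 612 and 624 TPM in controls against 1028, 1176 and 975 TPM (0.53 ± 0.17). LF control 1 was the high control for both genes. Of 40 tested genes of the sarcomere scaffold and dystrophin complex, 3 lay wholly higher (Xirp1, Obsl1 and Ldb3) and 1 wholly lower (Lama2), 0 passed limma, and the median was 0.05. Those shares were 7.5% and 2.5%, against 2.54% and 3.92% of all genes.

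The small heat shock protein gene Hspb1, whose product protects actin and desmin filaments, measured 257, 188 and 278 TPM in controls and 349, 309 and 331 TPM after laparotomy. The log2 difference was 0.47 ± 0.14 (adjusted p = 0.9995), and 0.08 ± 0.14 in HF. Without LF control 2, its lowest library, the LF difference was 0.30. Hspa1a, the inducible Hsp70, measured 9.82, 8.54 and 9.04 TPM in controls against 11.9, 11.4 and 20 TPM (0.57 ± 0.21), and the difference was 0.32 without LF laparotomy 3. Its exons overlap a gene on the opposite strand, and it is unknown whether the quantification used strand, so its value is uncertain. These were the 2 of 27 heat shock genes (7.41%) whose groups did not overlap, against 2.54% of all genes wholly higher. None was wholly lower, and the list's median was 0.10 against -0.03 for all genes.

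**Figure D2:**
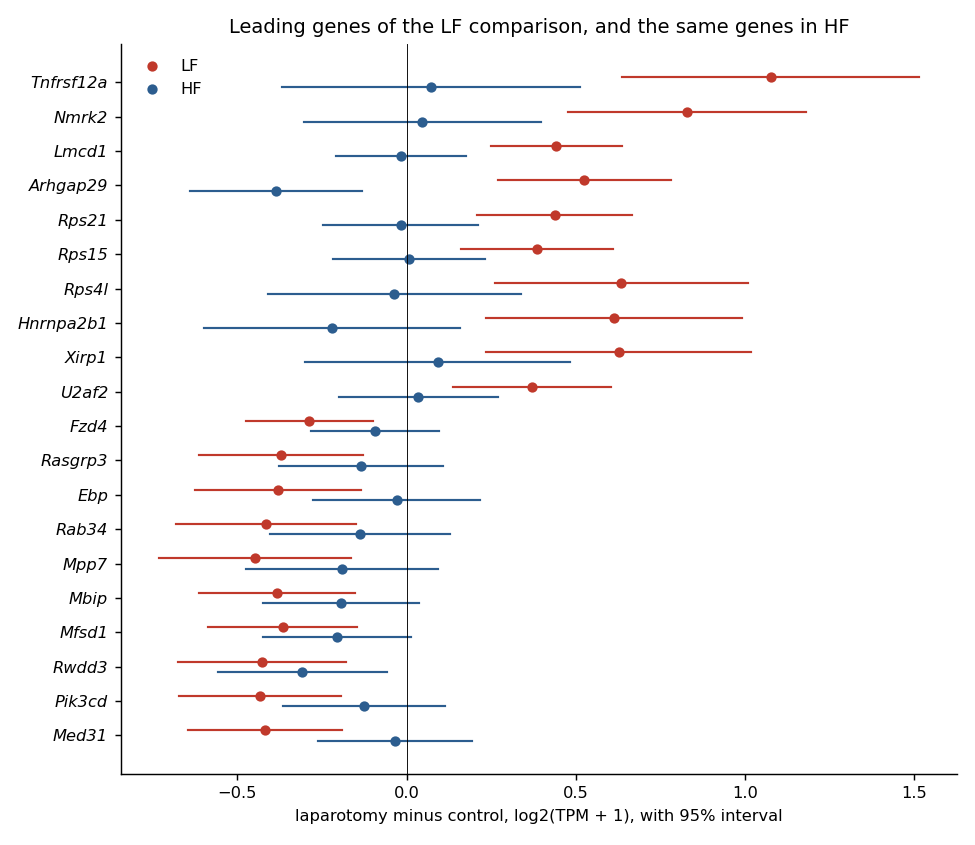
Log2 difference of log2(TPM + 1), laparotomy minus control, with limma's 95% interval, for the 10 higher and 10 lower genes leading the LF comparison by p, in LF (red) and in HF (blue). The LF intervals exclude 0 before any adjustment for the number of genes, because the genes were chosen that way, and for Tnfrsf12a, Nmrk2 and Lmcd1 the HF points lie within 0.08 of 0.

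On the lower side the leading genes were of low to middle abundance. Mfsd1, a lysosomal membrane transporter, measured 10, 10.5 and 10.4 TPM in controls and 7.28, 7.79 and 8.19 TPM after laparotomy (-0.37 ± 0.10). Med31, a Mediator subunit, measured 7.15, 7.12 and 6.15 TPM in controls against 4.37, 4.98 and 5.17 TPM (-0.42 ± 0.11). Pik3cd, the leukocyte-enriched catalytic subunit of phosphoinositide 3-kinase, measured 3.07, 3.23 and 2.96 TPM in controls against 1.84, 2.4 and 1.86 TPM (-0.43 ± 0.11). The 3 groups of values did not overlap, and each adjusted p was 0.9995. The Wnt receptor gene Fzd4 followed with a smaller but even difference (-0.29 ± 0.09), beside Ebp, a sterol isomerase of cholesterol synthesis (-0.38 ± 0.11), and Rasgrp3, a Ras activator (-0.37 ± 0.11). The others were Rwdd3 (-0.43 ± 0.12), Mbip (-0.38 ± 0.11), Mpp7 (-0.45 ± 0.13) and the small GTPase Rab34 (-0.42 ± 0.12). Rwdd3 has a near-identical copy among the transcripts, so its reads could be split.

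By size rather than p, among genes without overlap and with at least 5 TPM over the LF libraries, the lower genes were Mylk4, Scd1, Cfd, Cdkn2d and Klf9. Mylk4, a myosin light chain kinase, measured 12.4, 17.6 and 28.1 TPM in controls and 8.42, 11.2 and 8.53 TPM after laparotomy (-0.91 ± 0.32). LF control 3, the highest, is also the control with Myh4 above 30 TPM, and without the 3 libraries with high Myh4 the difference was -0.55. LF laparotomy 1, with more Myh4 (62.4 TPM), had the lowest Mylk4 of the LF libraries. Of the 8 markers of neighbouring fast muscle, 5 differences lay above 0, with a median of 0.11. Mylk4 was the only 1 wholly lower (12.5%, against 3.92% of all genes), and 0 lay wholly higher. The part of neighbouring muscle in the Mylk4 value was not tested. Scd1, the stearoyl-CoA desaturase, read 16.4, 33.9 and 22 TPM in controls against 10.6, 15.7 and 10.9 TPM (-0.87 ± 0.64). Klf9, a transcription factor induced by glucocorticoids, read 38, 44.1 and 45.4 TPM in controls against 24.4, 36.8 and 33 TPM (-0.44 ± 0.15). Without LF laparotomy 1, its lowest library, the Klf9 difference was -0.27. Cdkn2d, a cell cycle inhibitor, differed by -0.52 ± 0.26. The intervals of Scd1, Cfd and Cdkn2d included 0 even though their groups did not overlap.

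Of the lists described, cytosolic ribosomal protein genes had the most members free of overlap in LF. Of 81, 79 were tested, and in 52 of them (65.8%) every laparotomy library lay above every control, against 2.54% of all tested genes. None lay wholly below, and 77 of the 79 differences were above 0. Their median was 0.22, with the middle part of the list between 0.16 and 0.29 and the extremes at -0.09 and 0.61. None passed limma's test, with a smallest adjusted p of 0.9995, while 46 had an unadjusted p under 0.05, all higher, against 1.45% of all genes. The members are expressed together and share normalization, so the 79 are not independent.

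The 2 ribosomal subunits had like counts. In the small subunit 22 of 32 genes lay wholly higher, with a median of 0.22, and in the large subunit 30 of 47, also at 0.22. Rps21 measured 307, 246 and 335 TPM in controls and 385, 397 and 411 TPM after laparotomy (0.44 ± 0.11). Rps15 measured 615, 540 and 655 TPM in controls against 717, 746 and 906 TPM (0.38 ± 0.10). Rps27a, which encodes a ubiquitin fused to a small subunit protein, measured 352, 319 and 376 TPM in controls against 444, 423 and 427 TPM (0.31 ± 0.09). In each gene LF control 2 was the lowest library. Rpl36, the member with the largest difference, read 372, 233 and 326 TPM in controls against 409, 410 and 601 TPM (0.61 ± 0.18). Rps6, the mTOR pathway's phosphorylated ribosomal protein, read 258, 230 and 288 TPM in controls against 291, 297 and 316 TPM (0.22 ± 0.10). Near-identical copies exist for many of these genes (8 for Rpl36, 10 for Rps6, 4 for Rps15 and 1 for Rps21), so single values are uncertain. With the pseudogene loci added, the share of all TPM in ribosomal protein sequences was 2.77 ± 0.180% in controls and 3.24 ± 0.159% after laparotomy (SD, n = 3 each).

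**Figure D3:**
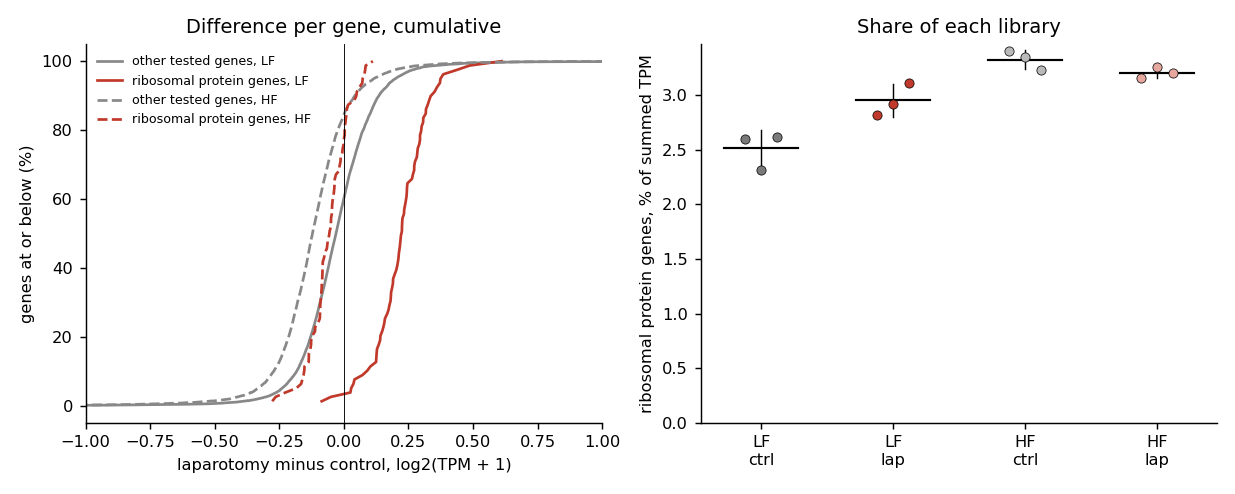
Left, cumulative percent of genes (vertical axis) at or below a log2 difference of laparotomy minus control (horizontal axis), for 79 ribosomal protein genes (red) and the other tested genes (grey) in LF (solid) and HF (dashed). Right, ribosomal protein genes as a percent of summed TPM in each library with mean and SD (n = 3); the LF laparotomy libraries (2.82, 2.92 and 3.11) lie above the LF controls (2.32, 2.60 and 2.62) and below the HF libraries.

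As a share of each library, ribosomal protein genes took 2.60%, 2.32% and 2.62% of TPM in the LF controls and 2.82%, 2.92% and 3.11% after laparotomy. The LF controls were the lowest of the 4 groups. HF controls held 3.32 ± 0.0885% and HF laparotomy libraries 3.20 ± 0.0494% (SD, n = 3), both above the LF laparotomy libraries. In HF the list's median difference was -0.06, with 0 genes wholly higher (0.604% of all genes in HF) and 11 wholly lower (16.6% of all genes). The difference of the effects, LF minus HF, was above 0 in 77 of 79 genes with a median of 0.28, and the smallest adjusted p of that test was 0.9998. Over all tested genes the median laparotomy difference was itself higher in LF (-0.03) than in HF (-0.12). The denervation and neuromuscular junction list had a larger median difference of the effects, at 0.31, with 1 HF control far from the others. In HF that list's mean log2 value was 3.22, 4.14 and 3.23 in controls and 3.13, 3.42 and 3.30 after laparotomy. Rplp1, a protein of the ribosomal stalk, was one of 7 members wholly higher in LF and wholly lower in HF. It read 661, 508 and 586 TPM in LF controls and 672, 766 and 830 TPM after laparotomy, and in HF 933 ± 66 and 797 ± 30 TPM. Whether 7 members exceed what 52 wholly higher in LF and 11 wholly lower in HF would share by chance was not tested.

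Ribosomal protein transcripts are short and abundant, and properties of that kind moved with the LF difference over all genes. Its Spearman correlation with transcript length was -0.222 and with GC content 0.279 over 10686 genes, which are not independent replicates. The median difference was 0.02 in the quartile of genes with the shortest transcripts (up to 2090 bases) and -0.06 in the longest quartile. In the shortest quartile without ribosomal protein genes, 100 of 2605 genes (3.84%) lay wholly higher. Among 334 genes there that also had at least 100 TPM, 31 did (9.28%), with a median of 0.06. With the length and GC trend removed from each library, 52 ribosomal protein genes lay wholly higher, against 5.09% of all genes, with a median of 0.22 against 0.00. Under quantile normalization the count was 21, against 5.07% of all genes, with a median of 0.15. Without LF laparotomy 1 it was 62, against 11.4% of all genes. Without the 3 libraries with high Myh4, which leaves 2 against 2 in LF, it was 66, against 22.8%. The part of RNA or library quality in the result was not tested.

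Other translation genes lay near the background: of 53 tested initiation and elongation factors and tRNA synthetases, 2 lay wholly higher and 0 lower, with a median of 0.00. Nuclear genes of the respiratory chain and ATP synthase, also short and abundant, had a median of 0.09, with 2 of 78 wholly higher and 1 lower. Proteasome subunits had 2 of 34 wholly higher, 0 lower and a median of 0.01. In the growth, IGF and mTOR list 1 of 40 lay wholly higher (Rps6, also counted above) and 1 wholly lower. The latter was Igfbp5, a binding protein for insulin-like growth factors, at 47.6, 45 and 47.9 TPM in controls and 33, 38 and 36.2 TPM after laparotomy (-0.38 ± 0.14). Igf1 itself stood near 1 TPM, with overlap (-0.31 ± 0.14).

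Genes of muscle protein breakdown lay near or below their control levels, and none passed the test. Fbxo32 (atrogin-1) measured 83.2, 91.3 and 104 TPM in controls and 66.7, 61.4 and 85.2 TPM after laparotomy (-0.39 ± 0.16, 95% interval -0.73 to -0.05, adjusted p = 0.9995). Trim63 (MuRF1) measured 76.7, 85.9 and 104 TPM in controls against 81, 55.7 and 112 TPM (-0.14 ± 0.20, interval -0.58 to 0.30). Neither interval reached a doubling of TPM + 1. Of 24 tested atrophy ligases and FoxO targets, 1 lay wholly higher, 0 lower, and the median was -0.02. Autophagy and lysosome genes had 0 of 43 wholly higher and 2 lower (median -0.08).

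Glucocorticoid targets gave no common direction, with 1 of 22 tested genes wholly higher, 2 wholly lower and a median of -0.06. Fkbp5, a chaperone of the glucocorticoid receptor and one of its most sensitive targets, read 15.6, 15 and 15.1 TPM in controls and 10.8, 11.6 and 18.6 TPM after laparotomy (-0.19 ± 0.21). Single libraries decided the Fkbp5 value, which was -0.046 without LF laparotomy 1 and -0.41 without LF laparotomy 3. Pdk4, which spares glucose by inhibiting pyruvate dehydrogenase, read 171, 158 and 224 TPM in controls against 238, 125 and 241 TPM (0.08 ± 0.30). The wholly higher member was Cdkn1a, the cell cycle inhibitor p21, at 7.92, 9.34 and 6.64 TPM in controls against 17.1, 10.6 and 10.2 TPM (0.58 ± 0.52). LF laparotomy 1 was the high library for Cdkn1a, and without it the difference was 0.36. Fst, the myostatin antagonist follistatin, overlapped fully (0.31 ± 0.35). Of the 28 genes fixed for the report, Lcn2, Cebpd, Socs3, Nr4a3 and Mstn fell under the filter on low values and were not tested.

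Circadian clock genes were mostly on the lower side: 15 of 18 tested differences were below 0 (median -0.17), 5 genes lay wholly lower (3.92% of all genes did) and 0 higher. HF had a like median of -0.18, with 3 wholly lower. Per2, a repressor of the clock, read 1.54, 1.68 and 1.89 TPM in controls and 1.07, 1.15 and 1.25 TPM after laparotomy (-0.33 ± 0.15). Tef, a clock output factor, read 80.6, 80.7 and 90.1 TPM in controls against 65.3, 76 and 72.1 TPM (-0.23 ± 0.11). Per1, at -0.28 ± 0.18 and at -0.17 without LF laparotomy 1, belonged to both the clock and glucocorticoid lists. The other members without overlap were Per3 and Rora. The hour of collection is not given in the labels, so clock phase and treatment cannot be told apart.

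Stress responses outside the heat shock list were mixed. In the unfolded protein and integrated stress response list 3 of 34 genes (8.82%) lay wholly lower, against 3.92% of all genes, and 0 higher. The median was -0.02. One was Chac1, which degrades glutathione and is induced by ATF4, at 3.88, 4.94 and 9.2 TPM in controls and 3.51, 1.53 and 2.17 TPM after laparotomy (-1.01 ± 0.41), against 0.49 ± 0.41 in HF. LF control 3 was the high control for Chac1. Among p53 targets and cell death genes 1 of 29 lay wholly higher (Cdkn1a, 3.45%) and 4 wholly lower (13.8%), with a median of -0.06. The shares of all genes were 2.54% and 3.92%. Acute phase and innate inflammation genes had 0 of 20 wholly higher and 1 lower (median -0.07), with Serpina3n, an acute phase protease inhibitor, at -0.38 ± 0.24. The interferon response list had the second highest median of the lists with 4 or more tested genes, at 0.15, with 31 of 36 differences above 0, but 0 of its genes were free of overlap. The list summed to 276, 233 and 226 TPM in controls and 266, 397 and 190 TPM after laparotomy. LF laparotomy 2 was the high library, and LF laparotomy 3 was the lowest LF library. In HF the median of the interferon list was 0.24.

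In the denervation and neuromuscular junction list 2 of 30 genes (6.67%) lay wholly higher, against 2.54% of all genes, and 0 lower. The median was 0.08. Myh8, the neonatal myosin heavy chain, read 1.48, 1.46 and 1.27 TPM in controls and 2.2, 2.62 and 1.9 TPM after laparotomy (0.43 ± 0.16), and the other was the acetylcholine receptor subunit gene Chrnd. Among adult myosins, Myh2 of fast oxidative fibres read 2519, 2345 and 2870 TPM in controls against 3063, 3037 and 3381 TPM, without overlap (0.30 ± 0.17). Slow Myh7 overlapped fully (-0.02 ± 0.15), as did Myh1 (-0.35 ± 0.34) and Myh4 (0.13 ± 1.11). Slow myosin as a percent of the 4 adult myosins was 47.9%, 43.6% and 46.9% in controls and 39%, 48.5% and 41.9% after laparotomy. The difference was -3.02 percentage points (exact permutation test, two-sided p = 0.4, the smallest possible being 0.1).

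The 13 mitochondrially encoded genes held 34.7%, 39.7% and 30.6% of TPM in controls and 33.4%, 32.4% and 26.4% after laparotomy, a difference of -4.28 points (exact permutation test, two-sided p = 0.4). The lowest share was that of LF laparotomy 3. Because TPM is a share of a fixed total, a lower mitochondrial share raises the TPM of all other genes. On TPM rescaled without these and the 10 highest genes, the median of all tested genes was -0.10 and 42 ribosomal protein genes lay wholly higher (1.66% of all genes), with a median of 0.15. mt-Co2, a subunit of cytochrome c oxidase with 2 near-identical nuclear copies, had the widest difference, -0.87 ± 0.30, with overlap. Ppargc1a, the coactivator of mitochondrial genes, overlapped as well (-0.22 ± 0.18). Fuel use showed little separation: of 41 fatty acid oxidation and uptake genes and 35 of the citric acid cycle, 0 were free of overlap, with medians of 0.03 and -0.03, and of 40 glycolysis and glycogen genes 1 lay wholly higher. The fatty acid genes summed to 9239, 8225 and 9489 TPM in controls and 8264, 7333 and 12690 TPM after laparotomy. LF laparotomy 3 was thus above every control, and the other laparotomy libraries were not.

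**Figure D4:**
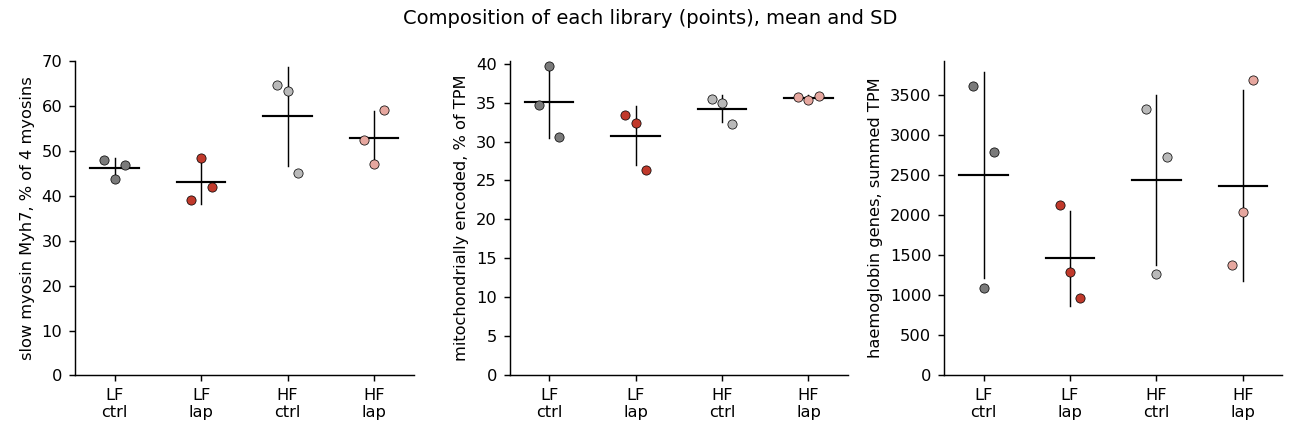
Share of the slow myosin Myh7 in the summed TPM of the 4 adult myosins (left, percent), mitochondrially encoded genes as a percent of TPM (middle) and summed haemoglobin TPM (right) in each library, with mean and SD (n = 3 per group). In all 3 panels the LF control and LF laparotomy points overlap.

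Markers of other cells that the sample could hold were examined beside these lists, and 0 of them passed the test. In bulk tissue, fewer cells of a type and less RNA per cell cannot be told apart. Adipocyte markers had 5 of 9 tested genes wholly lower (3.92% of all genes) and 0 higher, with a median of -0.50, and HF stood at -0.24. Of these, Cidec of the lipid droplet read 1.49, 1.57 and 1.31 TPM in controls and 0.421, 0.732 and 0.853 TPM after laparotomy (-0.57 ± 0.36). The hormone gene Retn differed by -0.63 ± 0.56 and the adipose protease Cfd by -0.59 ± 0.69, and the other members were Scd1 and Adipoq. The intervals of Cidec, Retn, Cfd and Scd1 included 0. The 16 adipocyte markers together summed to 2401 to 2730 TPM in controls and 2400 to 3249 TPM after laparotomy, and 1 of them, the brown fat gene Ucp1, was at 0 in every LF library. None of the 5 wholly lower genes exceeded 33.9 TPM in any LF library, so other members made up most of the sum. The list's mean log2 value was 4.34, 4.47 and 4.29 in controls and 3.89, 4.15 and 4.05 after laparotomy. Whether less fat in the dissected muscle took part was not tested.

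Few matrix genes separated the groups, and none passed the test. Of 19 tested collagens 2 lay wholly lower (10.5%, against 3.92% of all genes) and 0 higher (median -0.17, and -0.24 in HF). One was Col15a1 of the basement membrane zone, at 6.96, 6.02 and 5.51 TPM in controls against 4.95, 4.96 and 3.99 TPM (-0.35 ± 0.14). Of 58 other matrix genes 3 lay wholly lower (5.17%) and 0 higher, with a median of -0.19 and of -0.12 in HF. Among them was Lama2, the laminin chain of the muscle basement membrane, at 3.32, 2.9 and 2.09 TPM in controls against 1.93, 2.07 and 1.68 TPM (-0.37 ± 0.14). Fibroadipogenic markers had a median of -0.24 over 15 tested genes and tendon markers of -0.48 over 8, and 0 of either lay without overlap. LF control 1 was the highest LF library in each of these lists. The mean log2 value of collagens was 2.79, 2.21 and 2.09 in controls and 2.17, 2.28 and 2.08 after laparotomy. That of other matrix genes was 3.43, 3.02 and 2.79 against 2.93, 2.94 and 2.82. Fibroadipogenic markers stood at 4.80, 4.36 and 4.09 against 4.24, 4.31 and 4.12. Summed tendon markers were 101, 44.7 and 30.7 TPM in controls, against 28.9 to 44.2 TPM in the laparotomy libraries. The part of tendon in the matrix values was not tested.

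Blood and immune markers were low or overlapping. The 9 erythroid markers in the table summed to 1101 to 3633 TPM in controls and 975 to 2137 TPM after laparotomy, with all 6 tested members below 0 and none free of overlap. Macrophage markers had a median of -0.06 over 12 tested genes, with 0 free of overlap. Only 2 of 13 neutrophil markers were tested, the calprotectin genes S100a8 (0.65 ± 0.48) and S100a9 (0.57 ± 0.49), and the list summed to 2.69 to 7.99 TPM in controls and 7.16 to 16.2 TPM after laparotomy. The markers Ly6g and Elane of that list were at 0 in every LF library. Of the lymphocyte markers 2 of 19 were tested, at 5.51 to 15.9 TPM and 5.19 to 15.5 TPM summed. Endothelial markers had 1 of 20 genes wholly higher and a median of 0.00.

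**Figure D5:**
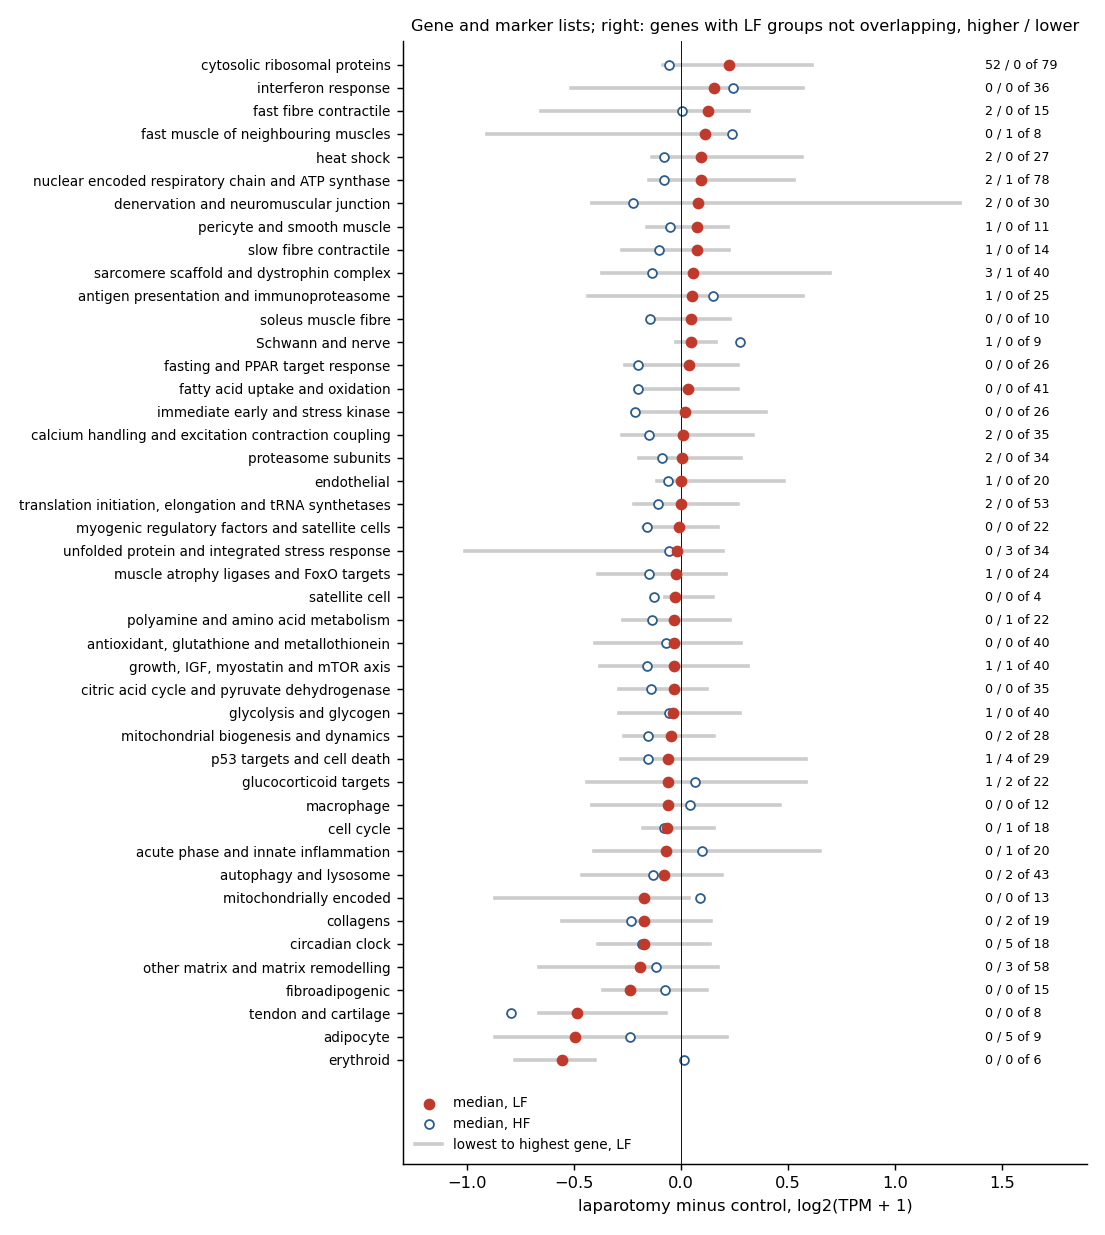
Median log2 difference, laparotomy minus control, of each gene or marker list with at least 4 tested genes in LF (red) and HF (white), with the lowest and highest gene in LF as a grey bar and, at the right, how many tested genes lay wholly higher or lower in LF. Ribosomal protein genes have the highest median (0.22), and 52 of 79 lay wholly higher.

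Whether laparotomy acted differently in LF and HF was tested as the difference of the 2 effects. limma called 0 genes (0%), with a smallest adjusted p of 0.685 and 331 genes at an unadjusted p under 0.05. In HF alone it also called 0 genes (0%), with 665 at an unadjusted p under 0.05 and a median difference of -0.12. The first gene of the interaction was Arhgap29, 0.53 ± 0.12 in LF and -0.39 ± 0.12 in HF, a difference of 0.91 ± 0.17 (adjusted p = 0.685). P3h4, a collagen-modifying factor of the endoplasmic reticulum, followed at 1.17 ± 0.24. Foxs1, a forkhead factor of vessel-associated cells, stood at 0.71 ± 0.17 and Nrarp, a feedback inhibitor of Notch signalling, at 0.63 ± 0.15. Proser3 stood at -1.01 ± 0.25, with exons that overlap Hspb6 on the opposite strand. For Tnfrsf12a, Nmrk2 and Lmcd1 the LF effect exceeded the HF effect by 1.004 ± 0.29, 0.78 ± 0.23 and 0.46 ± 0.13, each with an adjusted p of 0.9998. Over all tested genes, 61 lay wholly lower after laparotomy in both LF and HF and 2 wholly higher in both. In 26 genes the LF groups lay wholly higher and the HF groups wholly lower, and in 3 the reverse. The shares of all tested genes were 2.54% wholly higher and 3.92% wholly lower in LF, and 0.604% and 16.6% in HF. How many genes would share a pattern by chance was not computed.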

How the data were processed

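RNA of 12 soleus samples was sequenced from polyA-selected stranded libraries, per the labels' protocols. The authors deposited TPM per gene. The submitters' processing notes name the tools kallisto and DESeq2 and the build GRCm38, with no role or version. No strand setting or depth is given in the sources used here, and no counting interval or count test was possible.

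Here log2(TPM + 1), for genes averaging at least 1 TPM, was fitted with limma 3.58.1 in R 4.3.3 (mean per group, 12 libraries, mean-variance trend, 8 residual degrees of freedom). Tests were two-sided, and Benjamini and Hochberg adjustment ran over all 10757 genes. Of the identifiers, 29936 matched GENCODE M21. Copies were searched with blastn 2.17.0 at 95% identity. The fit was tested on simulated data.

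Members and lists were chosen with earlier results of these data known. Named were the 10 higher and 10 lower genes of smallest p without overlap, the 5 of largest difference each way at 5 TPM or more, also without overlap, up to 3 per list, 28 fixed genes and 5 for the interaction. Predicted, Riken and pseudogene (-ps) symbols were left out of these, except from lists. Obsl1, Ldb3, Chrnd, Per3, Rora and Adipoq complete counts and were chosen after their values were seen. Alternatives are in the closing section.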

Additional observations from a re-analysis of the deposited data

How the results depend on the processing

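Of 21 alternatives, 18 were planned and 3 added after seeing the data (length and GC trend, gene-by-gene array weights, without the 3 libraries with Myh4 above 30 TPM). Counts of 0 higher, 0 lower and 0 interaction genes became 3, 2 and 2 without a filter on low values, 1 higher with only the 6 LF libraries, 1 higher without the high-Myh4 libraries, and 333, 401 and 55 with array weights. That fit stopped short of convergence and gave LF laparotomy 2 a weight of 23.8 against 0.251 and 0.23 for the others of its group. Weights estimated gene by gene called 1, 1 and 1. Without single LF libraries the counts ranged from 0 to 1: 1 higher and 1 interaction gene without LF control 3, and 1 lower without LF laparotomy 3. Quantile normalization gave 21 ribosomal protein genes wholly higher in place of 52 (5.07% of all genes), and rescaled TPM 42 (1.66%). Without single LF libraries the count was 53 to 62, but with 2 libraries against 3 the share of all genes wholly higher was 3.19% to 11.4%, against 2.54%. The share wholly lower was 5.75% without LF laparotomy 1 and up to 21.8% without LF laparotomy 3, against 3.92%. Without LF laparotomy 3, 849 genes had an unadjusted limma p under 0.05 in place of 291. The median of all genes was then -0.09 in place of -0.03. The cause of these changes was not tested. The slow myosin difference kept its sign without single libraries (-5.71 to -0.95 points), as did the mitochondrial share (-6.47 to -1.93 points, and -2.76 with nuclear copies).

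Of 1302 gene values under alternatives, 1281 kept their sign. Reversed were Myh7 (0.016 with size factors, 0.15 and 0.12 with the 2 kinds of array weights, 0.18 without the high-Myh4 libraries, -0.10 to 0.11 without single libraries), Myh4 (-1.23, -0.93, -0.24, -0.014 with a fast muscle covariate, and -1.05 to 0.93 without single libraries), Pdk4 (-0.52 and -0.40 with array weights, -0.080 to 0.39 without single libraries), Ppargc1a (0.034 without the high-Myh4 libraries, -0.39 to 0.020 without single libraries) and Trim63 (-0.38 to 0.11 without single libraries). Leaving out 1 LF library moved the difference by over 1.5 times in 20 of the 63 named genes, among them also S100a9 (0.18 without LF control 2), mt-Co2 (-0.55 without it) and Fst (0.075 without LF control 1). In all, 39 values passed 0.05, 38 with array weights and 1 (Nmrk2) with gene-by-gene weights. No paired analysis was possible because the labels give no replicate numbers. Depth is unknown, so what counting error limits cannot be given.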

Other observations

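Loci annotated as ribosomal protein pseudogenes followed the protein genes in part: of 18 tested, 7 lay wholly higher in LF after laparotomy and 0 lower, with a median of 0.11 in LF and 0.02 in HF. Several are near-identical to their parent genes, so their reads can come from those.

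Apol7e, called only without the filter on low values, was listed at 0.327, 0.296 and 0.302 TPM in the LF controls and close to 0 in the other 9 libraries. Gm10171, an unnamed locus called without LF control 3, was listed at 1.32, 1.92 and 17.5 TPM in LF controls, at 9.37, 16.5 and 9.92 TPM after laparotomy, and at 0 in the 6 HF libraries. Both were singled out after their values were seen.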
